A study of Mus musculus with 721 samples.

Results

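Of the 99 cells taken from the inner cell mass of mouse blastocysts at E3.5, 27 held the transcript of Sox17 at 10 CPM (counts per 1000000 counts of the cell) or more and 72 held less. The cells were chosen by that value alone, with CPM computed from the raw counts of each cell. Cells with and without Sox17 were then compared inside each embryo that had at least 2 cells of either kind, which left 4 embryos with 22 cells with Sox17 and 52 without, 74 cells in all. The whole series holds 721 cells from E3.5 to E6.5. All came from wild-type embryos of the strain C57Bl/6Babr, so neither side carries a transgene or a treatment. At E3.5 the trophectoderm had been lysed by immunosurgery, a treatment with antibody and complement that spares the inner cells, and the remaining cells were picked by hand into wells for SMART-seq2 libraries made by the G&T-seq procedure. Wells were labelled single or double by the submitters, and 9 of the 99 E3.5 wells were double.

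SOX17 is an HMG-box transcription factor of the primitive endoderm (PrE), the layer that will line the blastocoel and build the yolk sac. In the early inner cell mass the PrE factor GATA6 and the epiblast factor NANOG are found in the same cells. Later, cells that secrete FGF4 become epiblast, whereas cells that receive the signal through FGF receptors keep GATA6 and switch on PDGFRA, SOX17, GATA4 and SOX7 in turn. The comparison asks what else distinguished the cells that already held Sox17 at this stage.

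Sox17 lies on the minus strand at chr1:4490931-4497354 of GRCm38. The share of cells with Sox17 was 32.1% of 28 cells in embryo 6, 29.4% of 17 cells in embryo 7, 27.3% of 11 cells in embryo 8 and 27.8% of 18 cells in embryo 9. Over all 99 cells it was 27.3%, with an exact binomial 95% interval of 18.8% to 37.1% that covers counting error only. The other E3.5 embryos gave only 3 or 4 cells each, and 9 further cells carried no embryo number. Among these 25 cells 5 held Sox17, and none of those embryos had 2 cells on both sides.

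**Figure D1:**
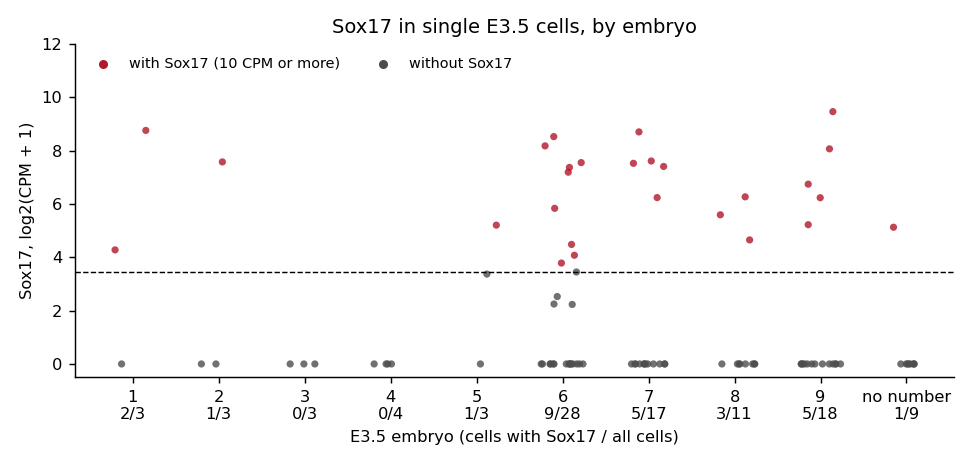
Each point is 1 E3.5 cell, placed by embryo on the x axis and by its Sox17 level, log2(CPM + 1), on the y axis, with the 10 CPM limit as a dashed line. Cells with Sox17 reach from 12.8 to 705 CPM, and 67 of the 72 cells without it sit at 0.

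The split was nearly one of presence and absence. Of the 72 cells below the limit, 67 had no Sox17 count at all, and the 5 others had 9.92, 9.35, 4.77, 3.75 and 3.70 CPM, from 1 to 9 reads. The lowest cells above the limit had 12.8, 15.9 and 18.4 CPM. Within the cells with Sox17 the median level was 145.2 CPM in embryo 6, 183.2 in embryo 7, 47.3 in embryo 8 and 106.1 in embryo 9. Embryo 8 had the fewest Sox17 cells of the 4 embryos and the lowest median, with 76.04 CPM in its highest cell against 705 CPM in the highest cell of embryo 9.

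The depth of both sides was compared first. The E3.5 libraries held 187196 to 1442116 counts. In the 4 embryos the median total of the cells with Sox17 minus that of the others averaged -57764 counts, and was above 0 in 1 of 4 embryos (exact sign-flip permutation test over embryos, two-sided p = 0.25, where 0.125 is the smallest p that 4 embryos allow). In single wells alone it averaged 41314 counts with an SD of 246672, and was again above 0 in 1 of 4 embryos. The same difference in detected genes averaged -254.1 (exact p = 0.50 in the same test). The summed libraries of the cells with Sox17 rest on 3 to 9 cells each, against 8 to 19 cells for the others, and hold 1483068 to 4970672 counts against 4249380 to 9937872.

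Markers of the removed trophectoderm were then looked at. The study had already left out cells with Elf5, Wnt7b and Tex19.1 together, so these 3 genes check the label only in part. Of 17 trophectoderm genes listed, Elf5, Ascl2 and Dppa1 had no count in the 4 embryos, and Cdx2 had 9 counts in all, none of them in cells with Sox17. The summed level of the list was 392 to 1180 CPM in the cells with Sox17 and 487 to 1120 CPM in the others. Most of it came from Tex19.1, which averaged 420 and 496 CPM. Krt7, a keratin, had 95 counts in the cells with Sox17 and 0 in the others. It reached 10 CPM in 2 of the 9 cells with Sox17 of embryo 6 and in none of embryos 7, 8 and 9. Hand1 had 22 and 419 counts on the 2 sides. Gata3 reached 10 CPM in 2 of 9 cells with Sox17 of embryo 6 and 1 of 5 of embryo 7. Without Sox17 it did so in 1 of 13 cells of embryo 9 and in none of embryos 6, 7 and 8. Wnt7b did so with Sox17 in 1 of 5 cells of embryo 9. Without Sox17 Wnt7b did so in 1 of 13 cells there and 1 of 19 of embryo 6. The part of such cells in the differences below was not tested.

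No gene passed the test between cells with and without Sox17. With edgeR's quasi-likelihood test on counts summed per embryo and side, 0 of 9218 genes (0%) reached an adjusted p of 0.05 with a log2 difference over 1. At an unadjusted p under 0.05 there were 417 genes, those with the higher level in cells with Sox17 making up 1.77% of the genes tested and those with the lower level 2.76%. DESeq2, run on the same sums, called 48 higher (0.482%) and 61 lower (0.613%) of 9949 genes. Of the genes it called, 99 had an edgeR value and 94 of those had an unadjusted edgeR p under 0.05. "Higher" and "lower" here are therefore levels in these 4 embryos, and a call by DESeq2 is named as such. The 8 genes of lowest p that were higher in every embryo were Uap1, Ckap4, Lamb1, Bmp4, Serpinh1, Sdc4, Pdgfra and Stam2. Those that were lower in every embryo were Nanog, Trim43c, Spic, Cd9, Fgf4, Sgk1, Fam96a and Pola2. Across all genes tested 488 (5.29%) were higher in all 4 embryos and 755 (8.19%) were lower in all 4, and the median log2 difference was -0.11.

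The transcription factors of the PrE were the first group. Gata6, which acts before Sox17 in this lineage, stood at 298, 659, 147.05 and 210.7 CPM in the cells with Sox17 of embryos 6, 7, 8 and 9, and at 192.98, 103.98, 89.2 and 60.9 CPM in the cells without. It was higher with Sox17 in each embryo, but the sides overlapped, since embryo 6 without Sox17 was above embryo 8 with it. The log2 difference was 1.44 ± 0.35 (SE, n = 4 embryos) with an adjusted p of 0.91 in edgeR and 0.0053 in DESeq2.

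Gata4, a later PrE factor, stood further apart. Its level was 63.9, 179.4, 38.6 and 228.4 CPM with Sox17 and 1.502, 8.48, 15.7 and 0.157 CPM without, in the same order of embryos. Every embryo with Sox17 was above every embryo without it. The log2 difference was 4.87 ± 1.16 (SE, n = 4 embryos), with an adjusted p of 0.89 in edgeR and 3.67e-07 in DESeq2. The gap was smallest in embryo 8, where 1 of the 3 cells with Sox17 and 2 of the 8 cells without it held Gata4. The level with Sox17 in that embryo thus rests on 1 cell.

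Klf6 had a log2 difference of 0.89 ± 0.27 and was higher in all 4 embryos. Foxq1, a forkhead factor, was near the detection limit, at 2.61 to 13.1 CPM with Sox17 and at 2.60 CPM in embryo 6 and 0 in the other embryos without it. Sox7, a SOX factor of the mature PrE, had 0 counts in the cells with Sox17 and 8 counts in 1 cell without. Foxa2 had no count on either side. Of the 6 listed PrE factors that could be tested, 4 were higher at an unadjusted p under 0.05 and none lower, and their median log2 difference was 1.27. Over all genes tested, 1.77% were higher and 2.76% lower at that p. Neither Sox7 nor Foxa2 was among the 6, so the list was tested only in part. The genes tested passed a filter on low counts, which a gene could pass through the side where it was high. For such genes the direction is no independent support.

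Pdgfra, the PDGF receptor that marks the PrE (chr5:75152292-75198215, plus strand), was the receptor gene of lowest p. It reached 335, 421, 97.4 and 167.4 CPM with Sox17 and 68.1, 24.96, 30.1 and 93.4 CPM without, and the sides did not overlap. The log2 difference was 2.20 ± 0.48 (SE, n = 4 embryos; adjusted p = 0.70 in edgeR and 1.46e-04 in DESeq2). Without overlap in this direction were 100 of all 9218 genes, or 1.08%. Embryo 7 had the widest gap and embryo 9 the narrowest.

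Ligand and receptor of the FGF pathway went opposite ways. Fgfr2, a receptor for FGF4, was at 103.6, 60.4, 53.6 and 19.12 CPM with Sox17 and at 23.03, 13.3, 5.54 and 8.77 CPM without. Each embryo showed the higher level with Sox17, with a log2 difference of 2.18 ± 0.63 (adjusted p = 0.98 in edgeR and 0.019 in DESeq2). The ligand Fgf4 was at 4.99, 8.46, 26.8 and 8.05 CPM with Sox17 and at 156.7, 261.2, 65.1 and 41.01 CPM without. Its sides did not overlap, and the log2 difference was -3.38 ± 0.73 (adjusted p = 0.65 in edgeR and 1.42e-05 in DESeq2). In the lower direction 2.12% of the genes tested did not overlap.

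The FGF-ERK pathway as listed had members on both sides. Of its 25 tested genes 2 were higher and 2 lower at an unadjusted p under 0.05, and the median log2 difference was 0.11. Beside Fgfr2 and Fgf4 these were genes of phosphatases. Over all genes tested, 1.77% were higher and 2.76% lower at that p. Dusp4, which dephosphorylates ERK, was at 26.3, 85.7, 0 and 8.05 CPM with Sox17 and at 3.51, 4.64, 0 and 1.88 CPM without. Dusp14 was lower in each embryo and was present in 1 of 27 cells with Sox17 and 16 of 72 without. Spry2, a feedback inhibitor found in every cell, was at 141.9 to 359.9 CPM with Sox17 and 222.4 to 395 CPM without, and its log2 difference of -0.33 ± 0.21 was within the spread between embryos. DESeq2 called Fgfr2, Fgf4 and Dusp14 from this list.

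**Figure D2:**
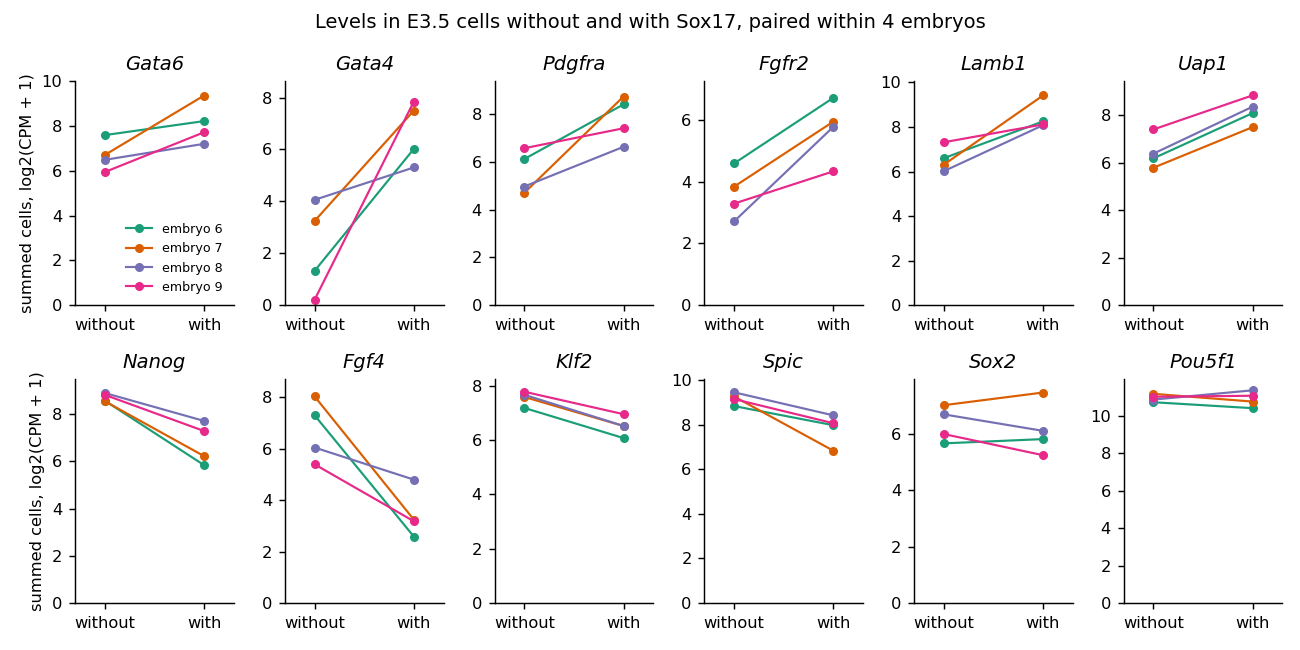
Each line joins the cells without Sox17 (left) to the cells with Sox17 (right) of 1 of 4 embryos, and the y axis of each panel gives the level over the summed cells as log2(CPM + 1). Gata6, Gata4, Pdgfra, Fgfr2, Lamb1 and Uap1 go up in all 4 embryos, Nanog, Fgf4, Klf2 and Spic go down in all 4, and Sox2 and Pou5f1 go both ways.

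Genes for making and secreting basement membrane were the next group. Lamb1, the laminin beta 1 chain, was at 304, 681, 269 and 276 CPM with Sox17 and at 95.9, 78.2, 63.6 and 158.1 CPM without, with no overlap. Its log2 difference was 1.91 ± 0.35 (adjusted p = 0.41 in edgeR and 1.01e-05 in DESeq2). Serpinh1, the collagen chaperone of the endoplasmic reticulum, averaged 559 ± 162.3 CPM (SD, n = 4) with Sox17 and 269.2 ± 111.1 CPM without. Lama1, the laminin alpha 1 chain, was found in 16 of 27 cells with Sox17 and 14 of 72 cells without, and its log2 difference was 1.82 ± 0.53.

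Over all genes tested, 1.77% were higher and 2.76% lower at an unadjusted p under 0.05. Of 14 tested genes of this list 7 were higher and none was lower at that p, and the median log2 difference was 0.84. The collagen-modifying hydroxylases Plod1 (197.4 ± 84.7 against 95.4 ± 31.3 CPM, SD) and P4ha2 (log2 difference 1.26 ± 0.55) were among them. Sparc, a matrix protein of the PrE, had a smaller difference of 0.60 ± 0.25 and was higher in 3 of 4 embryos. DESeq2 called Lamb1, Serpinh1 and Lama1.

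Uap1, which makes the UDP-N-acetylglucosamine used for glycosylation, had the lowest p of all genes. Its level was 270.7, 179.4, 327 and 455 CPM with Sox17 and 71.6, 54.2, 82.2 and 167.6 CPM without. The sides did not overlap, although embryo 9 without Sox17 came close to embryo 7 with it. The log2 difference was 1.77 ± 0.24, or 3.41-fold (adjusted p = 0.17 in edgeR and 6.61e-08 in DESeq2).

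Ckap4, a membrane protein of the rough endoplasmic reticulum, averaged 110.8 ± 74.9 CPM with Sox17 and 18.9 ± 12.1 CPM without. Its share of cells at 10 CPM or more was higher with Sox17 in embryos 7 and 8 only. It was lower in embryo 6 (3 of 9 cells against 9 of 19) and embryo 9 (2 of 5 against 7 of 13). Sdc4, a heparan sulfate proteoglycan, averaged 839 ± 322 and 459 ± 154.4 CPM. Stam2, an adaptor of endosomal sorting, was among the most even, at 139.9 to 177.5 CPM with Sox17 and no more than 75.3 CPM without. The secreted and lipoprotein genes of later endoderm did not follow: of 16 listed, 7 had no count on either side (Ttr, Afp, Trf, Rbp4, Fst, Cer1 and Ihh), and of the 6 tested only Ctsl, a lysosomal protease, was at an unadjusted p under 0.05, with a log2 difference of 0.58. The endocytic receptor gene Cubn was present in 17 of 27 cells with Sox17 and 18 of 72 without, but its level was higher in only 2 of 4 embryos (log2 difference 1.36 ± 1.34).

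On the lower side Nanog, the epiblast factor (chr6:122707489-122714633, plus strand), led. It stood at 56.5, 73.9, 209.8 and 155.7 CPM with Sox17 and at 381, 375, 478 and 452 CPM without. The sides did not overlap, and the level was 3.87-fold higher without Sox17. The log2 difference was -1.95 ± 0.29 (adjusted p = 0.21 in edgeR and 3.67e-07 in DESeq2). The 2 embryos with the most Nanog in their Sox17 cells were 8 and 9.

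Klf2, a factor of naive pluripotency, was at 66.5, 90.8, 90.8 and 123.1 CPM with Sox17 and at 144.6, 191.6, 202.7 and 219.3 CPM without, again with no overlap and with a log2 difference of -1.05 ± 0.27. Spic, an ETS-family factor, averaged 242.5 ± 94.96 and 582 ± 101.3 CPM. Tdh, the threonine dehydrogenase of pluripotent mouse cells, was lower in 3 of 4 embryos (log2 difference -1.59 ± 0.49). DESeq2 called Nanog, Fgf4, Klf2, Spic and Tdh lower from the epiblast list.

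Smaller differences reached genes that every cell expressed. Dppa5a, a marker of pluripotent cells, was at 4126 to 5451 CPM with Sox17 and 5954 to 7934 CPM without (log2 difference -0.48 ± 0.13). Dppa3 (-0.47 ± 0.15), Tfcp2l1 (-0.51 ± 0.19), Fbxo15 (-0.59 ± 0.19) and Tdgf1, the NODAL co-receptor (-0.61 ± 0.18), were lower in all 4 embryos as well. In all, 10 of 25 tested epiblast genes were lower and 2 higher at an unadjusted p under 0.05, and the median log2 difference was -0.35. The 2 higher genes were Sall4 (0.55 ± 0.21) and Bmp4. Over all genes tested, 2.76% were lower and 1.77% higher at that p.

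The core factors Sox2 and Pou5f1 had no common direction. Sox2 was at 55.3, 175.99, 67.97 and 36.9 CPM with Sox17 and at 49.7, 128.6, 102.5 and 62.8 CPM without, higher in 2 embryos and lower in 2. Its log2 difference was -0.18 ± 0.38. Pou5f1 averaged 1979 and 1996 CPM (log2 difference -0.05 ± 0.17). Prdm14, a regulator of naive pluripotency, was present in 5 of 27 cells with Sox17 and 35 of 72 without, but its summed level was lower in only 2 of 4 embryos.

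Genes outside the lineage lists stood on the lower side too. Cd9, a tetraspanin, averaged 518 ± 194.8 CPM with Sox17 and 955 ± 103.5 CPM without. The kinase gene Sgk1 was at 40.5 to 78.5 CPM with Sox17 and 81.96 to 303 CPM without. Pola2, a subunit of DNA polymerase alpha, averaged 11.2 ± 7.14 and 58.98 ± 24.99 CPM. Trim43c had a log2 difference of -1.16 ± 0.22 and Fam96a of -0.76 ± 0.18.

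Bmp4, a ligand of the BMP pathway, had the largest difference of the listed epiblast genes on the higher side. It stood at 107.4, 161.9, 6.54 and 189.5 CPM with Sox17 and at 22.5, 45.8, 1.21 and 28.6 CPM without. It was higher with Sox17 inside each embryo, and the sides overlapped because embryo 8 was low on both. The log2 difference was 2.29 ± 0.42 (adjusted p = 0.41 in edgeR and 6.18e-05 in DESeq2). Bmp4 was found in 13 of 27 cells with Sox17, among them all 5 such cells of embryo 7, and in 15 of 72 cells without.

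Smad1, which carries the BMP signal to the nucleus, had 250 counts in the cells with Sox17 of the 4 embryos and 0 in the others. Against a floor of 3 counts over the group it was at least 197.6-fold higher. The Smad1 counts came from few cells, 5 of 22 reaching 10 CPM, at least 1 in each embryo. In the 25 E3.5 cells of the other embryos the order was the reverse, with 3 of 20 cells without Sox17 and 0 of 5 cells with it at 10 CPM. Of 17 tested genes of the NODAL and BMP pathway 3 were higher and 1 lower at an unadjusted p under 0.05, with a median log2 difference of 0.02. Over all genes tested, 1.77% were higher and 2.76% lower at that p. Nodal, Lefty2 and Bmp2 had no count on either side.

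The remaining lists had few differences. In the LIF-STAT3 pathway Il6st, the shared receptor subunit gp130, was at 45.5, 72.2, 15.03 and 23.1 CPM with Sox17 and at 31.6, 16.96, 4.34 and 1.72 CPM without, higher in all 4 embryos. The median log2 difference of the 7 tested genes was -0.14, with Il6st higher and Tfcp2l1 lower at an unadjusted p under 0.05. None of 13 genes of S phase (median -0.10) and none of 13 genes of G2 and mitosis (median 0.41) was at an unadjusted p under 0.05, and 11 of the 13 mitotic genes lay above 0, as did 3847 of all 9218 genes tested. Among 9 tested genes of stress and p53 only Ccng1, a p53 target, was, with a log2 difference of 1.51 ± 0.48 (median -0.09). Among 7 tested trophectoderm genes only Tfap2c was, with -1.07 ± 0.43 (median -0.73). None of 3 tested genes of the SOX family was (median -1.10).

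The PrE genes were also counted cell by cell. Of 99 cells, 87 held Gata6 at 10 CPM or more, 69 Pdgfra, 36 Fgfr2, 27 Sox17, 19 Gata4 and 1 Sox7. All 27 cells with Sox17 also held Gata6 (100%, exact 95% interval 87.2% to 100%) and 24 held Pdgfra. Of the 27, 15 held all of Gata6, Pdgfra and Gata4, 9 held Gata6 and Pdgfra without Gata4, and 3 held Gata6 with neither. No cell had Gata4 and Sox17 without Pdgfra. Of the 19 cells with Gata4 all held Gata6 and Pdgfra, 15 held Sox17 and 13 Fgfr2. The genes were not strictly nested, since 64 of the 69 cells with Pdgfra held Gata6, 31 of the 36 cells with Fgfr2 held Pdgfra and 20 of the 27 cells with Sox17 held Fgfr2. The 1 cell with Sox7 held Gata6 and Pdgfra but none of Sox17, Gata4 and Fgfr2.

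**Figure D3:**
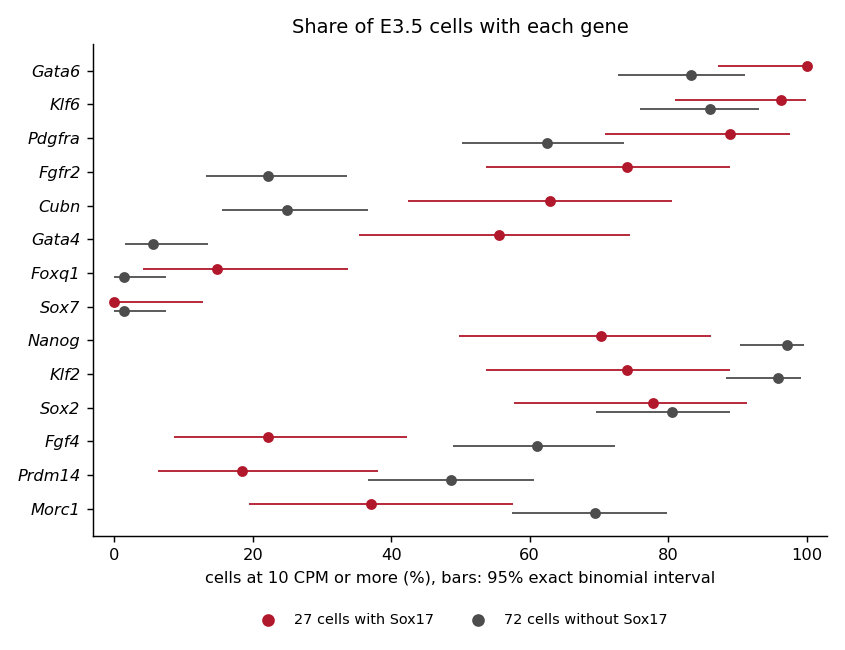
Points give the percentage of E3.5 cells at 10 CPM or more of each gene on the x axis, for the 27 cells with and the 72 cells without Sox17, with exact binomial 95% intervals that cover counting error only. The widest gaps are at Fgfr2 (74.1% against 22.2%) and Gata4 (55.6% against 5.56%), and Sox2 is close (77.8% against 80.6%).

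Gata6 itself did not separate the cells, since 60 of the 72 cells without Sox17 (83.3%) held it. Pdgfra was present in 62.5% of the cells without Sox17. Fgfr2 was in 20 of 27 cells with Sox17 (74.1%, interval 53.7% to 88.9%) and in 16 of 72 without (22.2%, interval 13.3% to 33.6%). Gata4 was in 15 of 27 (55.6%, interval 35.3% to 74.5%) and in 4 of 72 (5.56%, interval 1.53% to 13.6%). Cells of 1 embryo share their source, so these intervals describe the cells counted and are no test.

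Most cells with Sox17 still held epiblast genes. Nanog was at 10 CPM or more in 19 of 27 cells with Sox17 (70.4%, interval 49.8% to 86.2%) and in 70 of 72 without (97.2%). Of the 8 cells with Sox17 and no Nanog, 4 lay in embryo 6 and 3 in embryo 7. All 3 Sox17 cells of embryo 8 held Nanog. Fgf4 was in 6 of 27 cells with Sox17 (22.2%) and in 44 of 72 without (61.1%).

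Ligand and receptor were also counted together in the same cells, as a description. Whether they excluded each other beyond the split by Sox17 was not tested. Among the 27 cells with Sox17, 18 held Fgfr2 without Fgf4, 4 Fgf4 without Fgfr2, 2 both and 3 neither. Among the 72 cells without it, 8 held Fgfr2 without Fgf4, 36 Fgf4 without Fgfr2, 8 both and 20 neither. All 50 cells with Fgf4 held Nanog.

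**Figure D4:**
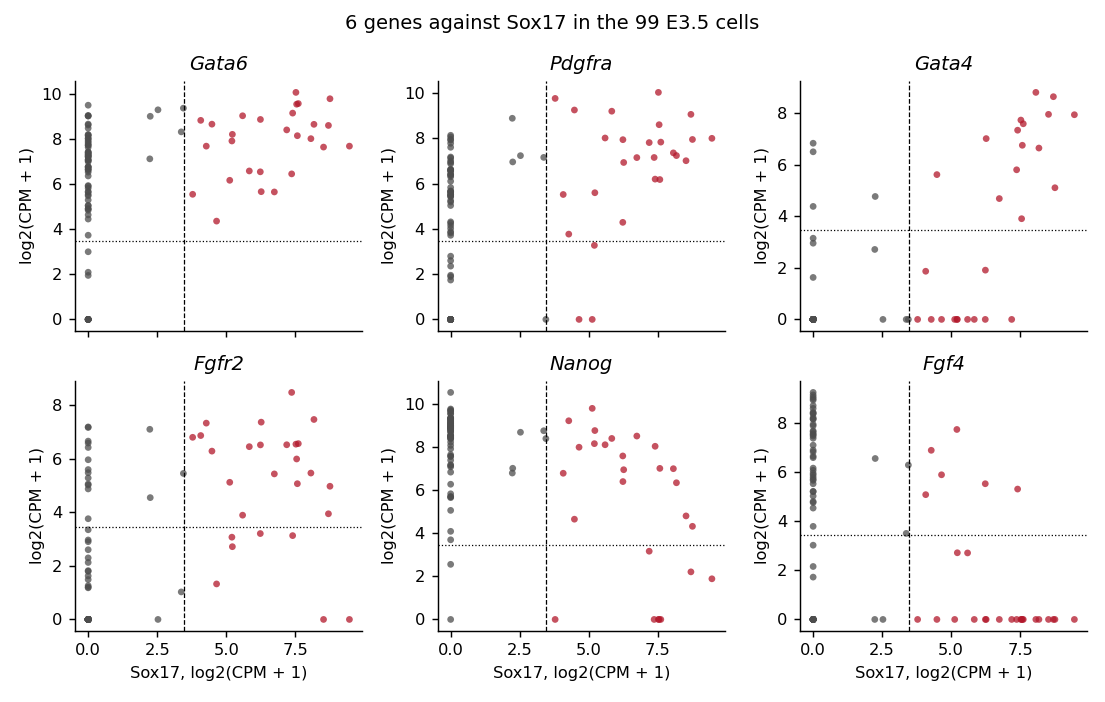
Each point is 1 of the 99 E3.5 cells, with Sox17 on the x axis and 1 gene on the y axis of each panel, both as log2(CPM + 1), and dashed and dotted lines at 10 CPM. Gata4 is held by all 9 cells of highest Sox17, Nanog by 5 of those 9 and Fgf4 by none.

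The 27 cells were also ordered by their level of Sox17, and since Sox17 set the order these counts are a description. The 9 cells of lowest Sox17 (12.8 to 47.3 CPM) came from 6 embryos, and 1 of them held Gata4, 8 Nanog and 4 Fgf4. In the 9 middle cells (56.1 to 183.2 CPM) Gata4 was held by 5, Nanog by 6 and Fgf4 by 2. In the 9 highest cells (186.6 to 705 CPM), from 5 embryos, Gata4 was held by 9, Nanog by 5 and Fgf4 by none. The median of Nanog was 272.6, 121.7 and 18.9 CPM in the 3 groups, and that of Gata6 was 241.6, 95.4 and 390 CPM. Pdgfra was held by 6, 9 and 9 cells. Gata6, held by 9 of 9 cells in each group, and Fgfr2, held by 6, 7 and 7 cells with medians of 33.96, 91.1 and 32.7 CPM, did not follow the order.

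The 5 cells with Sox17 outside the 4 embryos gave a first look at embryos that the comparison did not use. All 5 held Gata6 (71.3 to 889 CPM) and all 5 held Nanog (18.9 to 880 CPM). The 2 with the most Sox17, at 189.97 and 432 CPM, held Pdgfra and Gata4 and no Fgf4. The 3 others, at 18.4, 33.96 and 35.9 CPM of Sox17, had no Gata4 count, and 2 of them held Fgf4, at 118.5 and 214.3 CPM. One of those came from a double well.

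Over cells within embryos, the genes whose level followed Sox17 most closely were B3galtl, Fgfr2, Snai1, Pdgfra and Fam168a, with mean Spearman correlations over the 4 embryos of 0.58, 0.55, 0.51, 0.51 and 0.50 among 7539 genes ranked. B3galtl encodes a glycosyltransferase and Snai1 a zinc-finger repressor of epithelial genes. B3galtl was present in 22 of 27 cells with Sox17 and 24 of 72 without. At the other end Nanog had -0.61, Cd9 -0.54, Spic -0.51, Map1lc3b -0.49 and Calcoco2 -0.47. The correlations rest on 11 to 28 cells of the same libraries each, with most cells at 0 for Sox17, and are given as a description.

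The sides were not clearly separate groups over the variable genes. With a distance between cells built from the Spearman correlation over the 500 most variable genes without Sox17, the median distance between a cell with and a cell without Sox17 was 0.481, 0.463, 0.431 and 0.447 in embryos 6, 7, 8 and 9. Within the cells with Sox17 it was 0.474, 0.417, 0.427 and 0.435, and within the cells without it 0.462, 0.461, 0.433 and 0.439. The median between the sides was the largest of the 3 in embryos 6, 7 and 9 and lay between the others in embryo 8, by small margins throughout.

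The study tied 11 genes to the balance of epiblast and PrE expression in E3.5 cells, and since it chose them on these same cells their direction here is not independent evidence. At an unadjusted p under 0.05, 4 were higher with Sox17 (Pdgfra, Gata4, Fgfr2 and Pdk2) and 5 lower (Nanog, Fgf4, Pdpn, Dppa5a and Gm10664). Over all genes tested, 1.77% were higher and 2.76% lower at that p. Pdk2, a kinase of the pyruvate dehydrogenase complex, was at 52.3, 88.6, 0 and 72.8 CPM with Sox17 and at 0.964 to 6.56 CPM without, so embryo 8 went against the other 3. Pdpn, a membrane glycoprotein, averaged 171.1 ± 44.4 and 319 ± 44.5 CPM without overlap. Morc1 was present in 10 of 27 and 50 of 72 cells, with a log2 difference of -1.95 ± 0.97. Top2b (1.19 ± 1.52) was higher in 3 of 4 embryos.

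The same split was made at E4.5, 1 day later, where 68 cells from 5 embryos held Sox17 and 37 did not. Wells labelled double made up 30 of the 68 and 8 of the 37. The sides of that split were not pure lineages either, since 14 of the 37 cells without Sox17 held Gata4 and 15 held Sox7. With edgeR 45 of 10271 genes (0.438%) were called at E4.5, 7 higher and 38 lower. That number depended on the embryos, with 0 genes called in single wells alone or without embryo 4 of that stage, and 0.735% of the genes called without its embryo 5. At E3.5 35 of the 38 lower genes could be tested, and 30 of them lay below 0 and 8 were lower at an unadjusted p under 0.05, with a median log2 difference of -0.38 against -1.83 at E4.5. Over all 9218 genes tested 5371 lay below 0 and 2.76% were lower at that p. Of the 7 higher genes 5 could be tested and 3 lay above 0.

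The log2 differences of both stages are set side by side for single genes. Pdgfra had a log2 difference of 2.20 at E3.5 and 2.83 ± 1.22 (SE, n = 5 embryos) at E4.5, Fgfr2 2.18 and 1.99 ± 0.78, Lamb1 1.91 and 1.75 ± 0.78, and Gata6 1.44 and 2.32 ± 0.80. Nanog had -1.95 and -2.47 ± 1.09, and Fgf4 -3.38 and -3.08 ± 0.62. The test of the difference between the stages gave adjusted p-values of 0.65 or more in edgeR for these genes and Gata4, with standard errors of 0.97 to 1.64, so sizes could differ widely between the stages without being called.

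The shares of cells with Sox17 that held each gene are given as a description. Double wells were 4 of these 27 cells at E3.5 and 30 of the 68 at E4.5. Nanog was in 70.4% of E3.5 cells with Sox17 and in 14.7% of E4.5 cells with Sox17. Sox2 was in 77.8% and 26.5%, and Sox7 in 0% (0 of 27 cells, which allows up to 12.8% by the exact interval) and 89.7%. Sox2 had a log2 difference of -0.18 at E3.5 and -2.24 ± 0.56 at E4.5, and Pou5f1 of -0.05 and -0.89 ± 0.22. The stage term for the pair was 2.07 ± 0.70 and 0.85 ± 0.30 (adjusted p = 0.38 and 0.40 in edgeR).

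**Figure D5:**
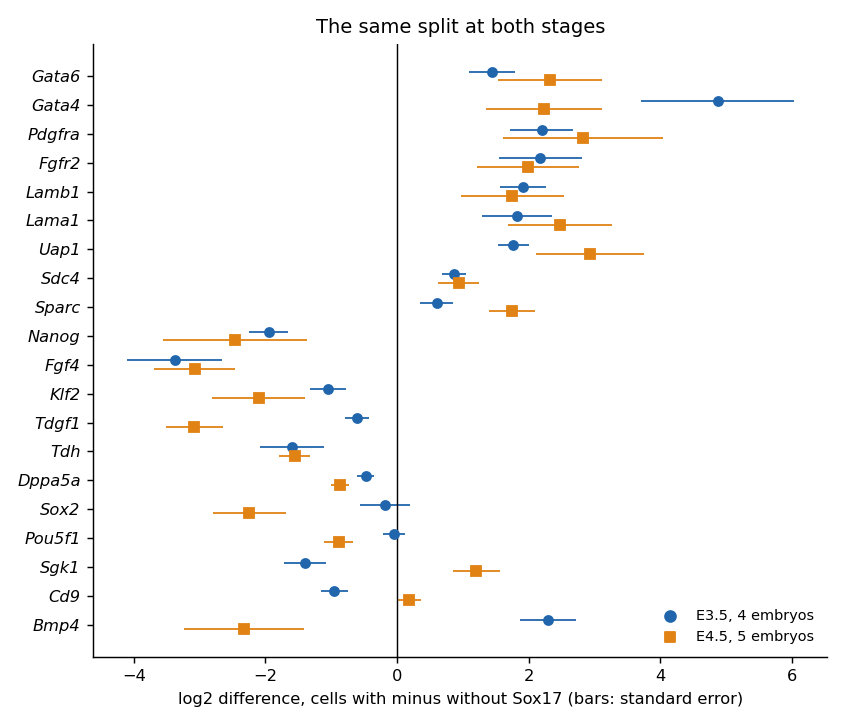
The x axis gives the log2 difference of cells with minus cells without Sox17 for 20 genes on the y axis, at E3.5 (circles, 4 embryos) and E4.5 (squares, 5 embryos), with standard errors. Most genes lie on the same side of 0 at both stages, whereas Bmp4, Sgk1 and Cd9 lie on opposite sides.

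Some genes pointed opposite ways at the 2 stages. Bmp4 had 2.29 ± 0.42 at E3.5 and -2.33 ± 0.91 at E4.5, a difference between the stages of 4.63 ± 1.04 (adjusted p = 0.21 in edgeR). Sgk1 had -1.40 ± 0.32 and 1.202 ± 0.36 (difference -2.59 ± 0.50, adjusted p = 0.13). Among the 4 genes of lowest p in either direction were also Chchd10 (1.67 ± 0.26, adjusted p = 0.066), Cth (3.43 ± 0.58, adjusted p = 0.097), Ifi30 (-2.45 ± 0.47, adjusted p = 0.13) and Cyp2s1 (-2.87 ± 0.61, adjusted p = 0.21). Pramel7, also among them, had no count in E4.5 cells without Sox17, so its fitted difference is not given. The stages share no plate, so stage and plate cannot be told apart.

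Only 2 of 11576 genes (0.0173%) passed the test of the difference between the stages, the neurofilament genes Nefm and Nefl. At E3.5 Nefm was at 5.39, 7.33, 0 and 30.2 CPM with Sox17 and at 0 to 0.313 CPM without, with counts in 3 cells with Sox17 and 1 cell without. Nefl was at 0, 33.8, 0 and 67.8 CPM with Sox17 and at 0 to 0.313 CPM without, from 2 cells with Sox17 and 3 cells without. At E4.5 both were widely expressed on both sides, Nefm at 126.96 ± 77.6 and 146.3 ± 62.8 CPM (SD, n = 5) and Nefl at 202.4 ± 99.98 and 253.8 ± 98.97 CPM. The stage terms were 7.29 ± 0.85 (adjusted p = 0.012 in edgeR) and 7.26 ± 1.01 (adjusted p = 0.039), and at E3.5 they rest on these few cells. Neither was called without embryo 7 or 9 of E3.5 or without embryo 1 of E4.5.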

How the data were processed

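The deposited table holds raw counts of reads per gene for 721 cells, with 24483 gene rows on chromosomes 1 to 19. The authors trimmed reads with Trim Galore, mapped them with HISAT2 to GRCm38 and counted them per gene in SeqMonk, and left out cells with few genes, high mitochondrial reads or trophoblast markers. The submitters' processing notes name Trim Galore 0.4.3 and HISAT2 2.0.5. Reads carry no molecular identifiers, and genes that share sequence with close copies (such as Trim43c and other Trim43 genes) may have lost or gained reads.

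Cells were placed in embryos by their titles. Cells with at least 10 CPM of Sox17 and cells below it were summed separately in each embryo with at least 2 cells of either kind. Sums were compared with edgeR 4.0.16 (R 4.3.3; TMM, filterByExpr, embryo as a block, quasi-likelihood test, Benjamini-Hochberg over all genes tested but Sox17). Calls needed an adjusted p no higher than 0.05 together with a log2 difference beyond 1 either way. CPM of summed cells use TMM-scaled totals, and CPM of single cells use the raw total. E4.5 cells were treated alike, and the difference between the stages was an interaction term. The 2 sums of an embryo came from the same embryo and are paired by it (their deviations from the side means correlated at 0.13, 0.05, 0.05 and 0.07). Values after ± are standard errors for log2 differences and SDs over embryos for CPM. Shares of cells have exact Clopper-Pearson intervals. The edgeR p-values rest on how much the difference between the sides varied from embryo to embryo, with a variance partly shared over genes. The standard errors were derived from that test, as the size of the log2 difference over the square root of its F statistic. The fits were tested on simulated data.

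The cells, the gene lists and the tests were chosen with earlier results of these data known. Named genes were those of the PrE, epiblast and FGF lists, those the study tied to the balance of epiblast and PrE expression, and in each direction the 8 genes of lowest p that moved the same way in every embryo. For the stage difference the 4 of lowest p in each direction were named. For other lists 2 to 4 genes of lowest p were named at most. Cubn, Krt7, Hand1, Gata3, Wnt7b, Smad1, Spry2 and Snai1 were chosen after their values were seen where no rule named them. Alternatives were RLE factors, no filter, DESeq2 1.42.0, limma 3.58.1, no block, other limits, single wells, other minimum numbers of cells, thinned counts and each embryo left out. Those for E4.5 alone, and leaving embryos out of the stage difference, were added after seeing the data.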

Additional observations from a re-analysis of the deposited data

Results flagged for a closer look

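In groups of 4 embryos, 7 sets of values (6.09% of those looked at) had 1 embryo far from the other 3, and chance alone sets apart about 1 in 20. Among cells with Sox17, Lamb1 was at 681 CPM in embryo 7 against 269.3 to 304 in the others, Sdc4 at 1319 CPM in embryo 6 against 628 to 716, Dusp14 at 14.4 CPM in embryo 6 against 0 to 1.96, Trim43c at 422 CPM in embryo 8 against 135.7 to 169.8, and Fgf4 at 26.8 CPM in embryo 8 against 4.99 to 8.46. Among cells without Sox17, Ckap4 was at 37.1 CPM in embryo 7 against 12.2 to 13.3, and Foxq1 at 2.60 CPM in embryo 6 with no count in the others.

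By the test of the difference between the stages itself, 2 genes differed, both with the larger log2 difference at E3.5: Nefm (7.29) and Nefl (7.26). At E3.5 Nefm was held by 3 cells with Sox17 and Nefl by 2. What set them apart was not tested.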

How the results depend on the processing

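At E3.5 no gene was called with edgeR, and the share called stayed at 0% with another normalization, other Sox17 limits, single wells, thinned counts, no fold limit and each embryo left out in turn. It was 0.0705% with no filter on low counts, 1.10% with DESeq2 (48 genes higher, 61 lower) and 0.0209% with limma on mean log2(CPM + 1). Without the filter 10 genes were called, all of them also by DESeq2: Uap1, Pdgfra, Nanog, Serpinh1, Fgf4, Trim43c, Ckap4, Spic, Lamb1 and Gata4. With limma the 2 genes were Serpinh1 and Aqp8. The sums are paired by embryo, and with no replicate block the share was 0% as well. At least 3 cells a side, numbered embryos only and plate P9 only left the same 74 cells.

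At E4.5, where these alternatives were chosen after seeing the data, the share called was 12.7% with DESeq2, 0% in single wells, 1.31% with a limit of 20 CPM, 4.61% with thinned counts and 0% to 0.735% with each embryo left out. The share whose difference itself differed between the stages was 0.00899% in single wells, 0.0342% and 0.0349% with limits of 5 and 20 CPM, 3.72% with DESeq2, 0.162% with thinned counts and 0% to 0.0988% with each embryo left out. In single wells the mean difference in total counts was 41314, with 1 of 4 embryos above 0. With a limit of 50 CPM, 18.2% of E3.5 cells held Sox17.

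Of 942 values of 53 named genes under alternatives, 7 changed sign, all in Sox2 and Pou5f1. Sox2 was at 0.0875 with a limit of 50 CPM, 0.0215 with 1 cell a side, 0.14 with thinned counts and -0.40 to 0.0099 with each embryo left out. Pou5f1 was at 0.15 with 1 cell a side and -0.23 to 0.0766 with each embryo left out. Sizes moved as well with 1 cell a side, which took in 27 cells with Sox17 and 65 without. These cells counted as 8 embryos, 1 of them being the 9 cells without an embryo number. There Nanog was at -1.04 against -1.95, Pdgfra at 1.12 against 2.20 and Lamb1 at 1.01 against 1.91. Serpinh1 was at 0.60 against 1.13, whereas Trim43c was at -1.83 against -1.16. In edgeR 94 genes were then at an unadjusted p under 0.05, against 417. The median of all genes ran from -0.21 with no filter to 0.12 with limma, so differences near 0 depend on the scaling. The causes were not tested. With 4 embryos and 3 to 9 Sox17 cells in each, genes of few counts could not be compared closely.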
